A study of Mus musculus with 12 samples.

Results

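The genes described here are 50 genes whose products build and use the mitotic spindle, attach chromosomes to it at the kinetochore, or divide the cell in cytokinesis. They were listed by symbol, with earlier results of these data known, and all 50 were found among the 25700 genes of the deposited count table. All 50 also passed the expression filter, which kept 18597 genes, so none of them had to be left out of the tests.

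The study asked whether Schwann cells of the developing sciatic nerve that had begun to make myelin could be sorted from those that had not, using mice that carried a Schwann cell Cre driver in 1 copy with ReYFP Tg/+ and βAct-DsRed Tg/+ on a C57bl/6J background at postnatal day 5 (P5). In these mice Cre switches on eYFP in Schwann cells, and all 3 gates share these alleles and this age. Cells positive for eYFP were divided by their side scatter (a measure of granularity in flow cytometry) into mSC with high side scatter and nmSC with low side scatter, while allSC took both clouds, so the gates stand for the 2 kinds of cell through scatter and not through a marker protein; nmSC here means cells not making myelin at this age, not mature Remak cells. Each gate has 4 libraries, numbered after subjects (mice) 1 to 4 of the labels, each made from the cell suspension of 1 mouse; both sexes were used, and the labels do not say which mouse was which.

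RNA was amplified by Smart-Seq2, which copies polyadenylated RNA over its full length and does not keep the strand. Between 8180927 and 16918122 reads were counted per library, so that 3 counts, taken here as the smallest level that can be told from 0, stood at 0.177 to 0.367 CPM (counts relative to the total of the library); this floor covers counting error only. Below, a level is in CPM scaled by the TMM method, which corrects for the share of reads taken by a few very abundant genes, and a difference is a log2 fold change with its standard error (SE). Sox10, which defines the Schwann cell lineage, was at 267 CPM in mSC and 266 CPM in nmSC, whereas the lineage gene S100b (3.06) was higher in mSC and Erbb3 (-0.79) was lower, on the log2 scale. Library mSC replicate 4 stood apart from the other mSC libraries: its TMM factor was 0.744, beside 0.826 to 0.871, its mitochondrial share of counts 2.04%, beside 1.42% to 1.60%, and its summed fibroblast-like genes 44.5 CPM, beside 12.98 to 15.8 CPM. Results that rest on it are given without it as well, and the part of these differences in them was not tested. Fewer dividing cells and less RNA per dividing cell cannot be told apart in bulk samples.

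A cell enters mitosis when cyclin-dependent kinase 1 is switched on by its B-type cyclins. The spindle then captures each chromosome at the kinetochore, and the spindle checkpoint holds back the anaphase-promoting complex, a ubiquitin ligase, until every kinetochore is attached. After the sister chromatids part, the central spindle and the contractile ring cut the cell apart. Schwann cells divide in the perinatal nerve and leave the cell cycle when they begin to make myelin, while immature Schwann cells can still divide.

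Mitotic genes as a group were far lower in mSC than in nmSC. Of the 50 genes, 48 were lower in mSC by the quasi-likelihood test of edgeR (p-values adjusted after Benjamini and Hochberg, threshold 0.05), none was higher, and Bub3 and Pttg1 did not pass. Among all tested genes 40.5% passed in either direction, 20.2% lower and 20.4% higher in mSC. The median log2 fold change of the 50 genes was -3.16, beside -0.16 for all tested genes. For 48 genes every mSC library lay below every nmSC library, an order that 17.4% of all tested genes showed. The fall was more than 8-fold for 32 genes, or 64% of the group, 4- to 8-fold for 12 and 2- to 4-fold for 4 (Smc2, Smc4, Ncapg and Mad2l1); 1.03% of all tested genes passed the test with a fall of more than 8-fold.

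**Figure D1:**
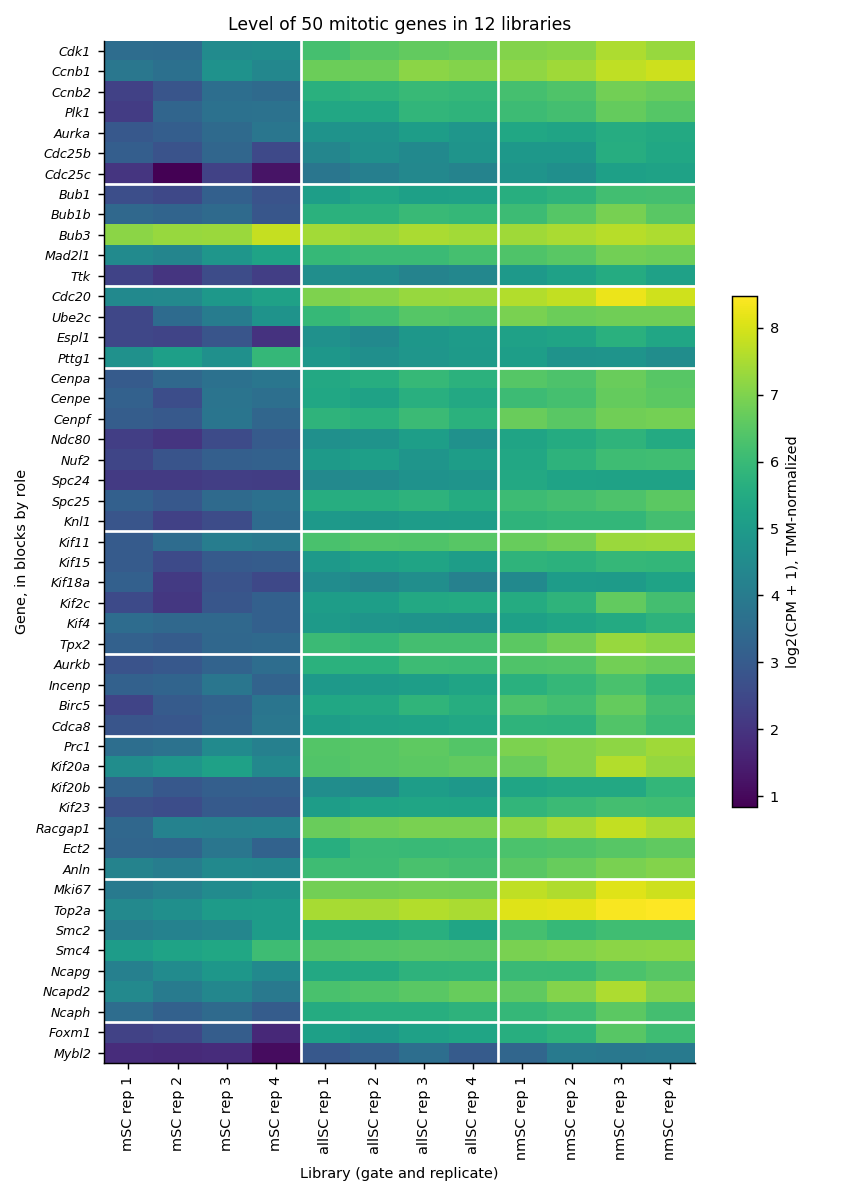
Level of each of the 50 genes (rows, in blocks by role) in the 12 libraries (columns, in blocks of mSC, allSC and nmSC replicates 1 to 4), as log2(CPM + 1) by colour. Of the 50 rows, 48 are darker (lower) in every mSC library than in any nmSC library, while those of Bub3 and Pttg1 do not.

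Together the 50 genes took 0.0545% to 0.0710% of all counts in the mSC libraries, 0.271% to 0.317% in allSC and 0.508% to 0.630% in nmSC. Without Bub3 and Pttg1, the summed level of the remaining 48 was 462, 478, 664 and 676 CPM in mSC replicates 1 to 4, against 3795, 4082, 5230 and 4854 CPM in nmSC and 2483, 2581, 2912 and 2852 CPM in allSC. Every mSC library held less than any allSC library, and every allSC library less than any nmSC library. All 50 genes were counted in every mSC library, the lowest single value being 9 counts, for Cdc25c and for Mybl2. The paper calls the mSC gate enriched in myelinating cells, and which cells gave these counts was not tested.

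**Figure D2:**
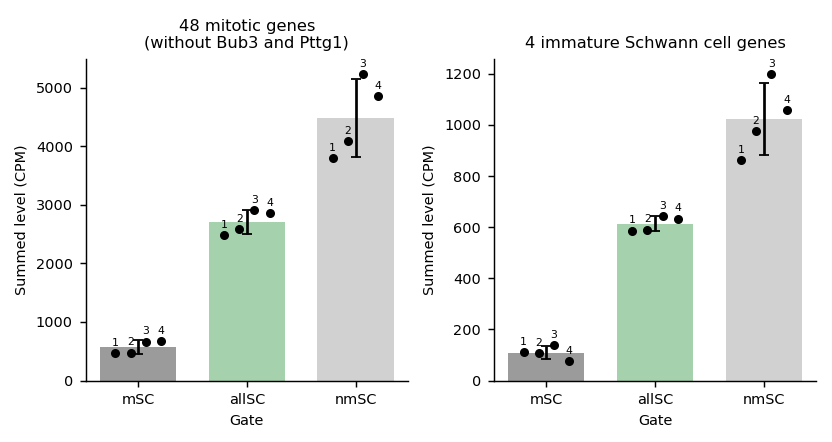
Summed level in CPM of the 48 mitotic genes without Bub3 and Pttg1 and of 4 immature Schwann cell genes in the mSC, allSC and nmSC gates; bars are means, error bars the SD over 4 libraries, and points single libraries with the number of their mouse. The 3 gates do not overlap in either sum, and allSC lies between the others in both.

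Levels were also divided by the mean length of the annotated transcripts of a gene, short ones included. This length need not be that of the RNA present: for Top2a it was 1695.7 bases beside 9013 bases of exons. For Ncapd2 it was 999 beside 6267. The order below therefore depends on the annotation. In nmSC the highest of the 50 were Cdc20 at 230 CPM per kb, Top2a at 184, Ncapd2 at 136, Racgap1 at 135 and Ccnb1 at 125; neighbours in this order overlapped in their ranges over the libraries. In mSC the order began instead with Bub3 at 84.1 CPM per kb, Pttg1 at 46.5 and Smc4 at 27.7, before Cdc20 at 25.8 and Ncapd2 at 17.4. Bub3 was only the eighth in nmSC, at 90.99 CPM per kb. Knl1, a large scaffold of the kinetochore, was the lowest in mSC at 1.46 CPM per kb, and Mybl2 the lowest in nmSC at 9.83.

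Promoters of many mitotic genes carry the cell cycle genes homology region (CHR), the letters TTTGAA or TTCGAA, through which MuvB complexes with B-Myb or the DREAM repressor bind, and one or more CCAAT boxes bound by NF-Y. RefSeq promoters (GRCm38.p6, from 250 bases before to 50 after the start) were at hand for 42 of the 50 genes; Cdc25c, Spc24, Tpx2, Aurkb, Incenp, Kif20a, Smc4 and Foxm1 had none. Both strands were searched. A CHR was found in 33 of the 42 promoters, or 78.6%, beside 21.7% of all promoters and 18.5% of those of tested genes. CCAAT was found in 29, or 69%, beside 41.1% of all promoters, and both together in 27, or 64.3%, beside 8.61%. The E2F letters TTTGGCG or their variants TTTCGCG and likewise TTTCCCG were in 7 (16.7%, beside 6.38% of all promoters). In the part from 100 bases before to 50 after the start, a CHR was present in 31 of the 42, or 73.8%, and in 9.87% of all promoters.

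The 150 bases before the RefSeq start are printed below, 5′ to 3′ on the strand of the gene. They are given for 5 genes with both motifs that fell in mSC, for Ccnb1, and for Bub3 and Pttg1. Bub3 and Pttg1 did not pass the test. The Ccnb1 window held CCAAT boxes and neither TTTGAA nor TTCGAA, and other spellings of the CHR were not searched. Capitals mark CHR and CCAAT letters on either strand (TTCAAA and ATTGG are their reverse complements). Of the 45 RefSeq entries of the group, 43 start within 100 bases of the start of a GENCODE transcript of the gene. The starts of Bub3 and Pttg1 lie 10 and 0 bases from such a transcript start but 148 and 270 bases inside the gene, whose 5′ end belongs to another transcript, so the stretches printed for them are not upstream of the whole gene.
Cdk1 (chr10:69352913-69353062, minus strand): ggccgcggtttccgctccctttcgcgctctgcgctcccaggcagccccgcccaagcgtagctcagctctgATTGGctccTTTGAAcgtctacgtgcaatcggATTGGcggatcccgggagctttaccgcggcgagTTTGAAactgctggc
Cdc20 (chr4:118437344-118437493, minus strand): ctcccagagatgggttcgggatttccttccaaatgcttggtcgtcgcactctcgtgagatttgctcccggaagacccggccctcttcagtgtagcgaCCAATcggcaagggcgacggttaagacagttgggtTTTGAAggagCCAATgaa
Mki67 (chr7:135716380-135716529, minus strand): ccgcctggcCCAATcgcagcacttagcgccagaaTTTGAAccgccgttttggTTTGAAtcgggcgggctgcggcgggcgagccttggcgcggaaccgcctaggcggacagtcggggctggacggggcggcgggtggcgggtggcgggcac
Kif11 (chr19:37376232-37376381, plus strand): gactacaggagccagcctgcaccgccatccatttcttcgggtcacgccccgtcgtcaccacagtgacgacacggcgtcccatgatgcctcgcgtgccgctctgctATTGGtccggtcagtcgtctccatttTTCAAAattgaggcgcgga
Espl1 (chr15:102296143-102296292, plus strand): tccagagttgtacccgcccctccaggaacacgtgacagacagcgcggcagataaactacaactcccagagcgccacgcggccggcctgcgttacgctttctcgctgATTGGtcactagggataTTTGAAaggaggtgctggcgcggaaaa
Ccnb1 (chr13:100786487-100786636, minus strand): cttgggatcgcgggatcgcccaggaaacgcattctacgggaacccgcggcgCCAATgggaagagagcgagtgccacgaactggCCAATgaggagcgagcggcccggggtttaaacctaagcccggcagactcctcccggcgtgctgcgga
Bub3 (chr7:131560220-131560369, plus strand): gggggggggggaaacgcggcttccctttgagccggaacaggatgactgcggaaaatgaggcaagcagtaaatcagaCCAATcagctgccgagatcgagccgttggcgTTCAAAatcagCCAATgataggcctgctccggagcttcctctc
Pttg1 (chr11:43425982-43426131, minus strand): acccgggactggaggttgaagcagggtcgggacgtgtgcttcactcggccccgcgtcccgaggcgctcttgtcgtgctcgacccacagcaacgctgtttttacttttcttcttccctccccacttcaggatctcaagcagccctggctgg
The Cdk1 stretch holds 2 CHR matches, at 71 and 15 bases before the start, and Cdc20 holds 1, at 18. Bub3, for which the first of 2 entries is shown, has a CHR match at 43 bases before the start and CCAAT at 74 and 32, the same letters as in promoters of genes that fell. The Pttg1 window of 300 bases around this start holds none of the 3 motifs in the letters searched. The bases before the 5′ end of the gene were not searched. Among tested genes outside the group, 26.1% of those with both CHR and CCAAT were lower in mSC, beside 19.0% of those with neither. The share was 22.8% with a CHR alone and 18.7% with CCAAT alone. Other genes of G2 and mitosis were not taken out of these shares. A match is only a run of letters; binding was not measured.

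All 7 genes of mitotic entry were lower in mSC, with log2 fold changes from -3.66 to -2.18. Positions of genes are given on GRCm38 from GENCODE release M21 and span the whole gene; values per library are listed in the order of replicates 1 to 4. Cdk1 (chr10:69335146-69352938), the kinase that drives entry, was at 10.8, 10.6, 21.8 and 22.9 CPM in mSC, 73.7, 88.6, 97.7 and 104 CPM in allSC and 131, 137, 185 and 155 CPM in nmSC. It differed between mSC and nmSC by a log2 fold change of -3.21 (SE 0.232, edgeR adjusted p = 1.38e-09). Cyclin B1, encoded by Ccnb1 (chr13:100778650-100786570), activates this kinase, and its transcript was at 13.4, 11.6, 25.7 and 19.9 CPM in mSC, 106.9, 107.1, 141 and 133 CPM in allSC and 146, 166, 211 and 234 CPM in nmSC. The log2 fold change of -3.43 (SE 0.227, edgeR adjusted p = 4.01e-10) was close in size to that of Ccnb2 (-3.59). Plk1 (chr7:122159439-122169873), a polo-like kinase needed from entry to cytokinesis, was at 3.60, 9.04, 11.9 and 11.99 CPM in mSC, 41.5, 41.9, 57.1 and 54.4 CPM in allSC and 65.7, 72.05, 99.7 and 86.2 CPM in nmSC. It was lowest in mSC replicate 1, and the gates did not overlap (log2 fold change -3.17, SE 0.268, edgeR adjusted p = 1.34e-08). Its exons overlap Gm44985 on the opposite strand, which was at 1.27 CPM in mSC and 9.95 CPM in nmSC.

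Cdc25c (chr18:34732993-34751533), a phosphatase that removes the inhibitory phosphates from Cdk1, was at 3.06, 0.783, 4.04 and 1.37 CPM in mSC, 13.3, 16.5, 20.1 and 18.1 CPM in allSC and 26.4, 24.02, 35.1 and 36.5 CPM in nmSC. It had the largest fall of the role (log2 fold change -3.66, SE 0.312, edgeR adjusted p = 1.46e-08), and its 4 mSC libraries spread more widely than those of most genes of the group. Its relative Cdc25b differed less, at -2.39 (SE 0.211). Aurora A, encoded by Aurka, matures the spindle poles and differed least of the role, at -2.18 (SE 0.183). The ratio of Aurka to Aurkb within a library was 1.11 to 1.22 in mSC and 0.410 to 0.494 in nmSC; this pair, like the other ratios given here, was chosen after the values had been seen.

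Of the 5 genes of the spindle checkpoint, 4 fell in mSC. Bub1 (chr2:127801122-127831865), the kinase that recruits the checkpoint to the kinetochore, was at 5.37, 4.61, 8.08 and 5.87 CPM in mSC, 33.4, 39.9, 35.1 and 35.8 CPM in allSC and 48.5, 53.5, 69.8 and 71.7 CPM in nmSC. The gates were well separated (log2 fold change -3.34, SE 0.186, edgeR adjusted p = 4.04e-11), as they were for its relative Bub1b at -3.37 and for the kinase Ttk at -3.18. Mad2l1, which encodes the protein that directly inhibits Cdc20, fell by 1.91 on the log2 scale (SE 0.184).

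Bub3 (chr7:131560222-131571895), the partner that carries Bub1 and Bub1b to kinetochores, did not follow them. It was at 139, 156, 158 and 221 CPM in mSC, 169.7, 159, 179 and 168 CPM in allSC and 166, 179, 201 and 184 CPM in nmSC, and the 3 gates overlapped. A log2 fold change of -0.12 (SE 0.135, edgeR adjusted p = 0.503) did not pass the test, with a 95% interval from -0.40 to 0.17. The ratio of Bub3 to Bub1 in a library was 19.6 to 37.6 in mSC (19.6 to 33.8 without mSC replicate 4) and 2.57 to 3.43 in nmSC. The highest Bub3 value, in mSC replicate 4, stood apart from the other mSC libraries. Without that library Bub3 passed the test at -0.27 (edgeR adjusted p = 0.0436), with library sizes that leave out the 50 most counted genes at -0.49 (edgeR adjusted p = 0.00235), and with scaling by total library size it passed at -0.69 (edgeR adjusted p = 5.69e-05), while the median of all tested genes moved from -0.16 to -0.73.

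Among the 4 genes that start anaphase, Cdc20, Ube2c and Espl1 fell and Pttg1 did not pass. Cdc20 (chr4:118432901-118437352), the activator of the anaphase-promoting complex, was at 20.9, 20.5, 28.9 and 35.8 CPM in mSC, 126, 134, 155 and 158 CPM in allSC and 189.9, 215, 300.0 and 241 CPM in nmSC. It gave a log2 fold change of -3.16 (SE 0.189, edgeR adjusted p = 1.06e-10). The exons of Cdc20 overlap those of Elovl1 on the opposite strand, which was at 1856 CPM in mSC and 474 CPM in nmSC, and reads of the shared stretch cannot be told apart. Ube2c, the ubiquitin-conjugating enzyme of the complex, fell by 3.03 on the log2 scale (SE 0.322), and Espl1, the separase that cuts cohesin, by 3.17 (SE 0.203).

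Pttg1 (chr11:43420250-43426251) encodes securin, the inhibitor of separase that the complex destroys. It was at 25.1, 34.4, 24.5 and 59.9 CPM in mSC, 28.05, 23.7, 27.7 and 31.1 CPM in allSC and 33.7, 25.9, 26.5 and 22.8 CPM in nmSC, so that mSC replicate 4 alone lay well above the rest and the other mSC libraries overlapped both other gates. Its log2 fold change of 0.40 (SE 0.225, edgeR adjusted p = 0.164) did not pass the test (95% interval -0.08 to 0.87). Without mSC replicate 4 the difference was 0.05 and did not pass, whereas without mSC replicate 1 it passed at 0.55 (edgeR adjusted p = 0.0470), and with scaling by total library size its sign turned, at -0.20. The ratio of Pttg1 to Espl1 was 3.94 to 20.9 in mSC (3.94 to 8.08 without mSC replicate 4) and 0.528 to 0.931 in nmSC.

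The 8 centromere and kinetochore genes were all lower in mSC, with log2 fold changes from -3.52 to -3.10, the narrowest span of any role with more than 2 genes. Cenpf (chr1:189640606-189688086), a large protein of the outer kinetochore that accumulates in G2, was at 7.41, 6.87, 13.1 and 9.24 CPM in mSC, 54.5, 49.98, 64.4 and 51.7 CPM in allSC and 105, 90.1, 111 and 115 CPM in nmSC. It marked the lower end of the role, with a log2 fold change of -3.52 (SE 0.187, edgeR adjusted p = 2.12e-11). Ndc80 (chr17:71496100-71526857), the microtubule-binding subunit of the complex named after it, was at 3.81, 3.04, 4.97 and 7.12 CPM in mSC, 24.6, 26.2, 33.8 and 25.2 CPM in allSC and 37.8, 44.9, 54.5 and 44.1 CPM in nmSC. The log2 fold change of -3.29 (SE 0.215, edgeR adjusted p = 3.38e-10) stood beside -3.14 for Nuf2, -3.44 for Spc24 and -3.10 for Spc25, the other 3 subunits. The centromeric histone Cenpa differed by -3.13, the motor Cenpe by -3.15 and Knl1 by -3.29.

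All 6 spindle motors and motor partners fell. Tpx2 (chr2:152847964-152895321), which activates Aurora A and nucleates spindle microtubules, had the largest fall of the 50 genes. It was at 8.29, 7.31, 9.40 and 9.99 CPM in mSC, 64.3, 59.4, 72.5 and 72.4 CPM in allSC and 93.1, 111, 156 and 138 CPM in nmSC, and the mSC libraries lay close together (log2 fold change -3.84, SE 0.178, edgeR adjusted p = 3.81e-12). Kif11 (chr19:37376403-37421859), the kinesin that pushes the spindle poles apart, was at 7.13, 10.6, 15.8 and 14.2 CPM in mSC, 75.9, 82.3, 81.9 and 88.5 CPM in allSC and 103, 115, 158 and 164 CPM in nmSC. Its log2 fold change of -3.51 (SE 0.218, edgeR adjusted p = 1.68e-10) was close in size to that of Kif2c, a microtubule depolymerase, at -3.61, while Kif15 was at -3.08, Kif18a at -2.46 and Kif4 at -2.16. The exons of Kif4 overlap Pdzd11 on the opposite strand, which was at 70.4 CPM in mSC and 49.7 CPM in nmSC.

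The chromosomal passenger complex corrects faulty attachments and later acts at the central spindle, and all 4 of its genes fell. Aurkb (chr11:69045647-69051664), its kinase Aurora B, was at 5.91, 6.61, 8.70 and 10.9 CPM in mSC, 50.9, 51.1, 65.6 and 64.7 CPM in allSC and 81.7, 83.04, 114 and 105 CPM in nmSC. The log2 fold change of -3.60 (SE 0.195, edgeR adjusted p = 2.81e-11) was the largest of the complex, beside -3.32 for Birc5 (survivin), -2.89 for Cdca8 (borealin) and -2.64 for the scaffold Incenp.

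All 7 genes of the central spindle and cytokinesis fell as well. Prc1 (chr7:80294450-80316259), which bundles the microtubules of the central spindle, was at 10.9, 12.2, 21.5 and 16.98 CPM in mSC, 84.9, 89.2, 94.2 and 84.9 CPM in allSC and 125, 131, 144 and 164 CPM in nmSC. It differed by a log2 fold change of -3.20 (SE 0.185, edgeR adjusted p = 6.99e-11). Its exons overlap Rccd1 on the opposite strand, which was at 8.77 CPM in mSC and 41.8 CPM in nmSC. Anln (chr9:22332012-22389188), the anillin scaffold of the contractile ring, was at 18.01, 15.8, 21.1 and 19.5 CPM in mSC, 67.02, 66.5, 77.1 and 71.6 CPM in allSC and 90.8, 102, 122 and 131 CPM in nmSC. Its log2 fold change of -2.58 (SE 0.148, edgeR adjusted p = 5.90e-11) was smaller than those of Racgap1 (-3.53) and Kif23 (-3.41), which form centralspindlin, and of Ect2 (-3.12), the exchange factor that they recruit. The kinesins Kif20a and Kif20b were at -2.44 and -2.54, and the opposite-strand partner of Kif20a, Cdc23, was at 133 CPM in mSC and 180 CPM in nmSC.

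Chromosome structure held the widest spread among genes that passed. Mki67 (chr7:135689784-135716361), which coats mitotic chromosomes and is the usual marker of cycling cells, was at 14.8, 17.3, 21.99 and 25.8 CPM in mSC, 113, 112, 117 and 114 CPM in allSC and 214, 188, 272 and 236 CPM in nmSC. It fell with a log2 fold change of -3.52 (SE 0.171, edgeR adjusted p = 6.48e-12), and Top2a, which untangles sister chromatids, fell alike at -3.53. Condensin, which compacts chromosomes, behaved unevenly. Smc4 (chr3:69004738-69034623), an ATPase core shared by condensin I and II, was at 32.3, 37.4, 40.9 and 67.1 CPM in mSC, 82.98, 86.6, 90.5 and 88.2 CPM in allSC and 120.5, 130.3, 140.4 and 142 CPM in nmSC. Its log2 fold change of -1.59 (SE 0.176, edgeR adjusted p = 5.03e-07) was the smallest among the 48 genes that passed. The highest Smc4 value in mSC was that of replicate 4, and with libraries left out in turn the change was -1.85 to -1.45. Smc2, the other core, was at -1.69 (SE 0.179) and Ncapg at -1.73 (SE 0.171), while Ncapd2 and Ncaph of the same condensin I were at -2.96 (SE 0.189) and -2.99 (SE 0.166). Differences in fold change between genes were not tested.

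Within single libraries the ratio of Smc4 to Ncaph was 2.99 to 9.10 in mSC and 1.52 to 2.02 in nmSC. The value of 9.10 was that of mSC replicate 4, and without it the range in mSC was 2.99 to 4.57. The ratio of Ncapg to Ncaph was 1.56 to 2.84 in mSC and 0.838 to 1.25 in nmSC. The ratio of Ncapd2 to Ncaph was 1.84 to 1.95 in mSC and 1.63 to 1.99 in nmSC, so these 2 subunits kept overlapping proportions. Exons of Ncapg overlap Lcorl on the opposite strand, which was at 160 CPM in mSC and 96.5 CPM in nmSC; the part of this and the other partners in the members' values was not tested. Over the group, 11 genes share exons with a gene on the opposite strand, and their median log2 fold change was -2.89, beside -3.18 for the 36 that share none.

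The 2 transcription factors of the group are known regulators of mitotic genes. Foxm1 (chr6:128362967-128376146), which activates genes of G2 and mitosis, was at 4.08, 4.52, 7.54 and 2.25 CPM in mSC, 34.7, 29.1, 35.6 and 39.2 CPM in allSC and 48.1, 56.3, 88.3 and 67.1 CPM in nmSC. It had the second largest fall of the 50 (log2 fold change -3.79, SE 0.261, edgeR adjusted p = 7.03e-10). Mybl2 (chr2:163054687-163084688) encodes B-Myb, which joins the MuvB core at CHR promoters, and was at 2.51, 2.35, 2.49 and 1.12 CPM in mSC, 6.63, 7.84, 10.9 and 7.15 CPM in allSC and 9.13, 14.4, 13.7 and 14.4 CPM in nmSC. It differed by a log2 fold change of -2.57 (SE 0.250, edgeR adjusted p = 9.58e-08), from the lowest levels of the group in nmSC. Of 9 genes of the MuvB core and its DREAM partners, 2 fell in mSC and the remaining 7 did not pass. Those that fell were the pocket protein Rbl1 at -2.10 and Lin9 at -1.39. This share was near the 20.2% of all tested genes that were lower in mSC. The median of the list was -0.13, beside -0.16 for all tested genes.

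**Figure D3:**
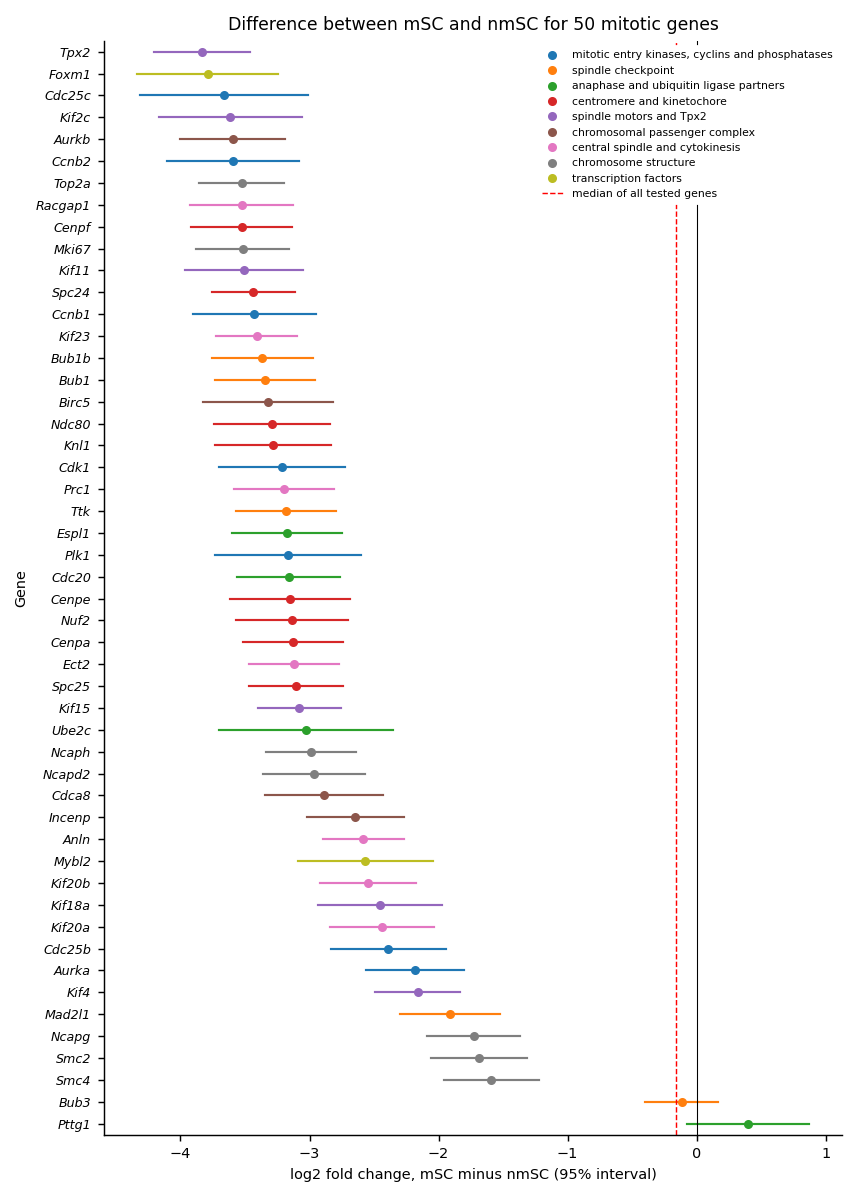
Log2 fold change of each of the 50 genes, mSC minus nmSC (horizontal axis), with its 95% interval, sorted by size and coloured by role; the dashed line is the median of all tested genes at -0.16. From Tpx2 at -3.84 to Smc4 at -1.59 the intervals of 48 genes lie below 0, and those of Bub3 and Pttg1 cross it.

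Other lists of division genes, set by function, showed where the difference was large and where it was not. Of 46 other genes of G2 and mitosis, 45 fell and 1 rose, with a median of -3.15; Kif18b (-3.81) and Iqgap3 (-3.68) fell furthest, and Zwint, a kinetochore partner of the checkpoint, rose at 0.54. Of 19 genes of the inner kinetochore and the Mis12 complex, 17 fell, with a median of -1.35, led by Cenpi (-2.59) and Cenph (-2.51). All 3 genes specific to condensin II fell, Ncapg2 at -2.17, Ncapd3 at -1.01 and Ncaph2 at -0.39. Of 33 DNA replication genes 29 fell, led by Uhrf1 (-3.67) and Rrm2 (-3.15), Gins4 rose at 0.47, and their median of -1.78 lay between those of the mitotic genes and of all tested genes.

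The machinery that also serves cells outside mitosis differed less, and its counts stand beside the 20.2% of all tested genes that were lower in mSC and the 20.4% that were higher. Of 16 genes of the anaphase-promoting complex core, Cdc23, Anapc1 and Fzr1 fell, at -0.44, -0.41 and -0.36, Anapc4 rose at 0.37, and 12 did not pass, with a median of -0.11. Cdc23 shares exons with Kif20a on the opposite strand, which was at 26.6 CPM in mSC and 145 CPM in nmSC. The part of Kif20a reads in the fall of Cdc23 was not tested. Anapc1 was at 54.8 CPM in mSC replicate 4, below 76.7 to 94.2 CPM in the other mSC libraries, and its fall is given with that library only. Of 10 cohesin genes 4 fell, Rad21 (-0.75) and Pds5a (-0.56) furthest, with a median of -0.21; in these 4 every mSC library lay below every nmSC library, as in 17.4% of all tested genes. Of 14 genes of the gamma-tubulin ring and augmin, 2 fell (Haus4 at -1.57, Haus5 at -1.29) and 3 rose, Haus7 at 0.70 and Haus2 at 0.49 furthest, with a median of -0.12. The medians of the lists were not compared by a test.

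**Figure D4:**
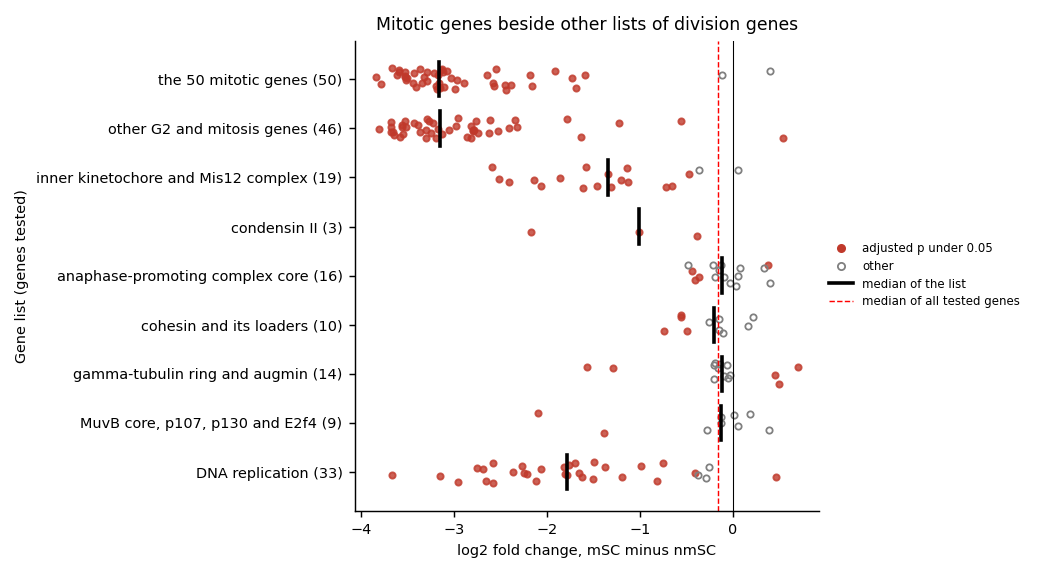
Log2 fold change, mSC minus nmSC, of each gene in the group of 50 and in 8 other lists of division genes; filled points passed the test, open points did not, black bars are list medians and the dashed line is the median of all tested genes. The 50 genes and the other G2 and mitosis genes gather near -3, with medians of -3.16 and -3.15, while the anaphase-promoting complex, cohesin, gamma-tubulin and MuvB lists lie near the dashed line.

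In allSC, which took both clouds, the same genes stood between the other gates. Against mSC, 48 of the 50 were higher in allSC, beside 8.8% of all tested genes (17.6% in either direction), with a median of 2.43 beside 0.05; for 48 every allSC library was above every mSC library (11.6% of all tested genes). Against nmSC, 43 were lower in allSC, beside 2.83% of all tested genes (10.4% in either direction), with a median of -0.71 beside -0.04; for 45 every allSC library was below every nmSC library (7.36%). The exceptions in this order were Bub3, Pttg1, Kif18a, Mybl2 and Ncapd2. These comparisons share libraries with each other and with the comparison of mSC and nmSC.

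Tpx2 was the furthest above mSC, at 2.94 (SE 0.173), and Smc4 the least among those that passed, at 0.98 (SE 0.174). Against nmSC the largest difference was that of Mki67, at -1.001 (SE 0.154, edgeR adjusted p = 0.000166), with 113, 112, 117 and 114 CPM in the 4 allSC libraries. The genes that did not pass there were Bub3, Pttg1, Ccnb1, Plk1, Ube2c, Kif18a and Mybl2. With the mouse as a block, Ccnb1 (-0.62, edgeR adjusted p = 0.0093) and Plk1 (-0.73, edgeR adjusted p = 0.0194) also passed. In a fit of only allSC and nmSC, Ccnb1, Plk1, Ube2c, Kif18a and Mybl2 passed (edgeR adjusted p from 0.00069 to 0.0145). Ccnb1, Plk1, Kif18a and Mybl2 passed as well with scaling by total library size and without the 50 most counted genes. The count of 43 depended on single libraries, while the size of the difference changed little: the median of the 50 genes stayed between -0.80 and -0.62 with libraries left out in turn, and each gene that lost its call was still lower in allSC. The count was 23 without allSC replicate 1, 23 without allSC replicate 2, 21 without nmSC replicate 3 and 28 without nmSC replicate 4.

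The place of allSC between the gates can be given as a percentage, with 0 at the mSC mean and 100 at the nmSC mean. Its median over the 48 genes was 54.6% (interquartile range 51.2% to 57.6%), beside 56.3% for all 7540 genes that differed between mSC and nmSC, 55.7% for DNA replication genes and 58.8% for immature Schwann cell genes. The lowest positions were those of Cenpe at 44.97%, Mki67 at 45.2% and Knl1 at 45.2%, and the highest those of Ect2 at 66.1%, Ncaph at 62.8% and Ube2c at 62.6%. Computed within each mouse, the median of the 48 was 61.5%, 58.7%, 51.1% and 50.1% in mice 1 to 4, or 55.3% ± 5.60 (SD, n = 4). The genes thus ran from 44.97% to 66.1% and the mouse medians from 50.1% to 61.5%.

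**Figure D5:**
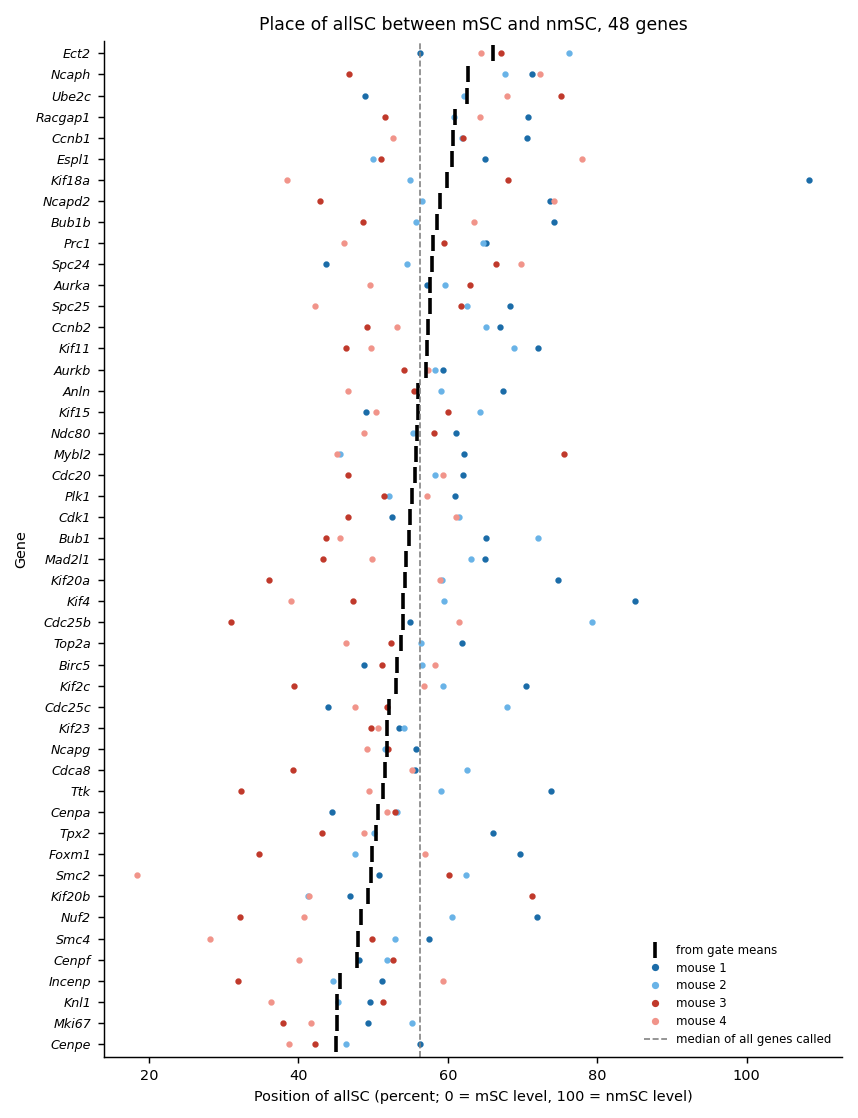
Position of allSC between the mSC level (0%) and the nmSC level (100%) for each of the 48 genes that differed; black ticks are from gate means, coloured points from the 3 libraries of each mouse, and the dashed line is the median of all genes called, 56.3%. Ticks run from 44.97% for Cenpe to 66.1% for Ect2, and the points of mice spread more widely than the ticks.

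Within a gate, the same libraries were the highest or the lowest for many of the 48 genes. In nmSC, replicate 3 was the highest library for 27 genes and replicate 4 for 18, while replicate 1 was the lowest for 36. In allSC, replicate 3 was the highest for 26 and replicate 1 the lowest for 31. In mSC, replicates 4 and 3 were the highest for 21 and 20 genes, and replicates 2 and 1 the lowest for 20 and 18. Replicate 4 was also the lowest for 10. These orders were not counted over all tested genes, so they may belong to the libraries and not to this group. Over all 50 genes the median coefficient of variation between libraries was 11.03% in allSC, 17.4% in nmSC and 28.1% in mSC, beside 15.2%, 19.3% and 26.7% over all tested genes. Mki67 was the steadiest gene in allSC, at 1.99%, and Ube2c the most variable in mSC, at 64.9%.

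Genes outside the group with the most similar profile over the 12 libraries were ranked by Pearson's r between their log2(CPM + 1) and the mean standardized profile of the 50, among 10772 genes. The 10 highest were Tuba1c (0.998), Sparcl1, Pimreg, Tspan18, Ckap2l, Fam83d, Tubb6, Kif22, Troap and Neil3 (0.995). Of these, Ckap2l, Fam83d, Kif22 and Troap belong to the list of other G2 and mitosis genes. Sparcl1, a secreted matrix protein, was at 70.3 CPM in mSC and 927 CPM in nmSC, and Tspan18, a membrane tetraspanin, at 33.7 and 227 CPM. The points fall into the gates, so a high r says that a gene separates the gates in the same way. Within the group the median r was 0.988, and the lowest were those of Bub3 (0.387) and Pttg1 (-0.353). Each of the 50 is part of this mean profile, so a high r within the group is partly built in.

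Markers of immature Schwann cells moved with the mitotic genes. All 4 immature Schwann cell genes (Ngfr, Ncam1, L1cam, Cdh2) were lower in mSC, with a summed level of 77.4 to 138 CPM in mSC and 861 to 1198 CPM in nmSC. Endothelial genes summed to 20.6 to 30.8 CPM in mSC and 7.72 to 15.9 CPM in nmSC, of which Kdr rose at 1.80 and Pecam1 fell at -0.95. The median log2 fold change of the 4 endothelial genes tested was -0.94, with the lowest at -1.20, so most of them did not follow the sum. Mural cell genes summed to 63.8 to 177 CPM in mSC (133 to 177 CPM without mSC replicate 4). In nmSC they summed to 47.4 to 85.2 CPM, and nearly all of the sum was Pdgfrb (1.09). Immune genes summed to 14.1 to 22.7 CPM in mSC and 18.8 to 27.9 CPM in nmSC, and Cd68 fell at -1.34, while Aif1 was listed at 0 in every mSC library. None of the fibroblast-like or erythroid genes tested passed, and these lists summed to at most 44.5 and 23.0 CPM in any mSC or nmSC library. The part of these cells in the mitotic values was not tested.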

How the data were processed

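RNA of sorted Schwann cells was measured by Smart-Seq2 in 12 libraries, 4 per gate. Per the labels and the methods, the authors made reads with bcl2fastq, aligned them with STAR 2.6.1c, counted them per gene with featureCounts and deposited counts without normalization. The labels name the mouse build GRCm38.p5, whereas the methods name a human build; the identifiers are those of mouse, and 25664 of 25700 matched GENCODE M21. Options for strand and multi-mapping reads are not given in the sources used here.

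From these counts, TMM factors (0.744 in mSC replicate 4, the lowest, to 1.28 in nmSC) and CPM were computed with edgeR 4.0.16 (R 4.3.3). After its expression filter, all 12 libraries entered a single quasi-likelihood fit, with Benjamini-Hochberg adjustment over 18597 genes and a threshold of 0.05. Steps were tested on simulated counts with set changes between mSC and nmSC. Changes of 1.5-, 2- and 4-fold were recovered by edgeR in 12.9%, 48.2% and 84.3% of the changed genes. False calls were 7.06% of those of edgeR and 14.5% of those of DESeq2, at the threshold of 0.05. No 2 libraries were duplicates (chi-square per degree of freedom from 4.03 to 95.7).

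Libraries of the 3 gates share subject numbers 1 to 4 in the labels, taken as the mouse; same-mouse deviations from the gate means correlated on average at 0.114 (allSC and mSC), 0.0191 (allSC and nmSC) and -0.0355 (mSC and nmSC), so the pairing rests on the labels and not on these values. Alternatives were DESeq2 1.42.0 and its size factors, other scalings and filters, fits of 2 gates, the mouse as a block, and leaving out each library. The 50 genes and all lists were chosen with earlier results of these data known. Genes given in full are at least 1 per role set by name, the 3 largest and the 3 smallest changes, and every gene that did not pass; other lists are given by counts, median and the 2 largest changes each way. The myelin and Schwann cell lineage lists are not reported here as lists. Sequences are RefSeq's (GRCm38.p6).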

Additional observations from a re-analysis of the deposited data

Results flagged for a closer look

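In each gate, the highest and the lowest of the 4 libraries were checked for distance from the other 3 with Dixon's ratio at its 95% limit. Of 150 groups of 4 libraries (50 genes in 3 gates) 8 held such a library, close to the 1 in 20 that chance gives.

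Racgap1 stood at 9.44 CPM in mSC replicate 1, below 17.4 to 17.7 CPM in the other mSC libraries. Ect2, its partner in cytokinesis, was at 48.2 CPM in allSC replicate 1, below 63.8 to 64.5 CPM in the rest of that gate. Ect2 was also at 13.1 CPM in mSC replicate 3, above 8.49 to 8.97 CPM in the other mSC libraries. In the same library Incenp was at 13.2 CPM, above 8.29 to 8.87 CPM.

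Kif15 was at 4.87 CPM in mSC replicate 2, below 6.99 to 7.37 CPM elsewhere in mSC. Mybl2 was at 1.12 CPM in mSC replicate 4, below 2.35 to 2.51 CPM, and at 9.13 CPM in nmSC replicate 1, below 13.7 to 14.4 CPM. Spc24 was at 42.8 CPM in nmSC replicate 1, above 36.5 to 37.4 CPM in the other nmSC libraries. None of these 8 values put an mSC library above an nmSC library for its gene.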

How the results depend on the processing

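For the 48 genes that fell in mSC against nmSC, all 768 fits (48 genes under 16 alternatives) kept the direction and passed the test, the smallest change being -1.45. Scaling by total library size moved the median of all tested genes from -0.16 to -0.73 and that of the 50 genes to -3.72; without the 50 most counted genes these were -0.53 and -3.52. The same 2 scalings gave medians of the 50 genes of 2.75 and 2.65 for allSC against mSC, and -0.96 and -0.86 for allSC against nmSC, and the first put allSC at 46.3% of the way from mSC to nmSC. The distance of the 50 genes from the median of all tested genes was -2.84 without a filter on low counts, and -3.11 to -2.86 with libraries left out in turn. The count of calls for allSC against nmSC ranged from 21 to 43 with libraries left out. Ccnb1, Plk1, Ube2c, Kif18a and Mybl2 gained calls there in a fit of only these 2 gates. Bub3 gained calls: for mSC against nmSC at -0.69 with total library size, -0.49 without the 50 most counted genes and -0.27 without mSC replicate 4, and with total library size at 0.33 for allSC against mSC and -0.37 for allSC against nmSC. Pttg1 gained one, at 0.55 for mSC against nmSC without mSC replicate 1. Both genes also changed sign. Pttg1 was at -0.20 for mSC against nmSC with total library size, and for allSC against nmSC at -0.24, at -0.14 without the 50 most counted genes, at -0.0063 in a fit of only 2 gates, and from -0.049 to 0.14 with libraries left out. Bub3 for allSC against mSC was at -0.056 with DESeq2's size factors, -0.055 with its Wald test, -0.016 without a filter, and from -0.10 to 0.13 with libraries left out; the cause was not tested. For all tested genes, the median of allSC against mSC was -0.0054 with DESeq2's size factors and -0.0056 with its Wald test. The mouse as a block (the pairing) gave the same 48 calls for mSC against nmSC (median -3.18) and changed only those of Ccnb1 (-0.62) and Plk1 (-0.73) for allSC against nmSC. Depth limits the least counted genes, Cdc25c and Mybl2, with 9 counts in their lowest library.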
